A study of Mus musculus with 12 samples.

Results

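The sequences described here are T cell receptor (TCR) beta chain CDR3s with a hydrophobic residue at both position 6 and position 7, counted from the conserved cysteine as position 1. They were chosen by sequence alone. A CDR3 had to be productive, meaning in frame and without a stop codon, and at least 11 residues long. Residues 6 and 7 both had to be alanine, phenylalanine, isoleucine, leucine, methionine, valine, tryptophan or tyrosine, and no cysteine was allowed from position 5 onward. Of 103479 different CDR3 nucleotide sequences in the series, 84736 were productive and 84009 of these had 11 or more residues. The rule found 2920 members, and the other 81089 sequences of 11 or more residues, called others, served for comparison. Among the others, 115 sequences had a hydrophobic pair but also a later cysteine. At the length limit, 179 members had 11 residues, and 11 CDR3s of 10 residues carried such a pair and were left out.

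The CDR3 is encoded where a V, a D and a J segment are joined, with bases trimmed and added at random at each junction. It lies in the middle of the receptor's binding face, and residues 6 and 7 sit near its tip, over the peptide held by the MHC molecule. Hydrophobic residues at these positions are known from work on developing T cells to favor reactivity to self peptides. Whether cells with such a receptor expand more, or gather in one organ, is the question that clone size and organ comparisons address.

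The receptors came from CD4+ T cells of C57BL/6 background that had been injected as naive cells into Rag2-/- recipients, which have no T or B cells of their own, to cause transfer colitis. All donors carried PRKAA1fl/fl, the floxed gene of the AMPKα1 subunit of an energy-sensing kinase. WT donors had no Cre, and KO donors also carried CD4-Cre, a recombinase driven by the CD4 promoter and active in T cells from the thymus onward. TCR libraries do not measure the deleted gene, so its loss could not be checked here. Spleen and mesenteric lymph node (mLN) were taken 6 weeks after transfer from 3 recipients of WT cells (replicates 1, 3 and 4) and 3 recipients of KO cells (replicates 1, 2 and 3), which gave 12 libraries. The mLN and spleen libraries that share a genotype and a number were treated as organs of 1 mouse.

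Each library counts unique molecular identifiers (UMIs), that is, tagged cDNA molecules, per clonotype, and a clonotype is 1 CDR3 nucleotide sequence. Library totals ran from 2488 UMIs (KO replicate 3 mLN) to 493287 UMIs (WT replicate 3 spleen), and members per library from 8 to 1027. The libraries were of 2 kinds. In 5 of them, the mLN of KO replicate 3 and both organs of KO replicate 1 and WT replicate 1, bases unusual for the J segment ended 2.60% to 5.85% of clonotypes counted once, against 26.1% to 38.3% in the other 7. The same 7 libraries were rich in clonotypes that lay within 5 bases of a clonotype with at least 20 times their UMIs. Such near neighbors made up 39.0% to 59.2% of members and 40.6% to 58.1% of others there, and 0% to 16% of members and 0.855% to 11.8% of others in the 5 libraries. How far such neighbors are errors of a larger clone was not tested.

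The 2 most abundant members of each mouse, by mean percent over both organs, are given below as nucleotides from 5′ to 3′, with the codons of residues 6 and 7 in capitals. They are shown because they are the largest clones with the pair and because the bases that encode it can be read in them.
WT replicate 1, alanine-tryptophan, TRBV13-1 and TRBJ2-7: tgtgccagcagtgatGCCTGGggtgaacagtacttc
WT replicate 1, tryptophan-valine, TRBV13-2 and TRBJ2-5: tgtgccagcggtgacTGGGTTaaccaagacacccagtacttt
WT replicate 3, alanine-tryptophan, TRBV13-2 and TRBJ2-5: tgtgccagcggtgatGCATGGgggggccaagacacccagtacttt
WT replicate 3, tryptophan-alanine, TRBV19 and TRBJ2-1: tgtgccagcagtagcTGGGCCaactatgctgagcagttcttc
WT replicate 4, alanine-isoleucine, TRBV5 and TRBJ1-4: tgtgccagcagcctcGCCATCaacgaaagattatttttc
WT replicate 4, valine-leucine, TRBV1 and TRBJ2-7: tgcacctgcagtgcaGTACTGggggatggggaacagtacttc
KO replicate 1, alanine-tryptophan, TRBV5 and TRBJ2-3: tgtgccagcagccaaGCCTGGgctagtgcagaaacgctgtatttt
KO replicate 1, alanine-tryptophan, TRBV13-2 and TRBJ1-3: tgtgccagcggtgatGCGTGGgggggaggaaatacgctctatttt
KO replicate 2, leucine-alanine, TRBV13-2 and TRBJ2-2: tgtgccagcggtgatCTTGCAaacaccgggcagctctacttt
KO replicate 2, phenylalanine-leucine, TRBV13-2 and TRBJ2-4: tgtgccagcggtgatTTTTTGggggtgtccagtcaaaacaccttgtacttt
KO replicate 3, tryptophan-alanine, TRBV4 and TRBJ2-4: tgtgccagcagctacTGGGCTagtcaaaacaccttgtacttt
KO replicate 3, tryptophan-alanine, TRBV13-2 and TRBJ2-1: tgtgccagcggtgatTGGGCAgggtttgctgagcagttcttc

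A tryptophan codon, TGG, stands at position 6 or 7 in 8 of these 12 sequences. The germline D segments, read from the GENCODE vM21 transcripts of GRCm38, show where that codon occurs, and it is in capitals here.
TRBD1 (chr6:41533201-41533212, plus strand): gggacagggggc
TRBD2 (chr6:41542163-41542176, plus strand): gggacTGGgggggc
TRBD2 holds the codon and TRBD1 does not. Of the 8 sequences, the tryptophan-valine clone of WT replicate 1 had no D match, and its J match covered all 6 bases of the pair. The TRBV13-2 tryptophan-alanine clone of KO replicate 3 was matched to TRBD1. Among all members counted in each mouse, 662 had tryptophan at position 7, and in 431 of them (65.1%) the whole codon lay inside the authors' D match, which named TRBD2 in 424. At position 6, 119 of 272 tryptophans did (43.8%), 116 with TRBD2. Leucine at position 7 lay inside the D match in 297 of 545 members (54.5%), whereas alanine, the most common residue, did so in 122 of 1322 at position 6 (9.23%) and 94 of 883 at position 7 (10.6%). Phenylalanine and isoleucine codons lay inside a D match in 0 members.

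The residue pairs were uneven. Of 64 possible pairs, 62 occurred in at least 1 mouse and 12 in all 6, and the 8 most common made up 56.2% of member clonotypes on average. Alanine-tryptophan led, with 13.3 ± 5.15% of the members of a mouse (mean ± SD, n = 6 mice). It made up 21.6%, 13.1% and 16.3% in WT replicates 1, 3 and 4, and 12.3%, 8.87% and 7.49% in KO replicates 1, 2 and 3. Each KO value thus lay below every WT value, a description for which the test across all pairs is given further on. The value of WT replicate 1 rested on 8 of 37 members and that of KO replicate 1 on 7 of 57. Near neighbors made up 37.5%, 54.8% and 65.6% of the alanine-tryptophan clonotypes in WT replicates 1, 3 and 4. In KO replicates 1, 2 and 3 they made up 28.6%, 37.5% and 41.4%. Whether the order of the genotypes holds without near neighbors was not tested. Alanine-alanine followed with 9.96 ± 2.78%, alanine-leucine with 7.78 ± 2.62%, leucine-alanine with 5.40 ± 4.53% and valine-leucine with 5.39 ± 1.58%. Valine-tryptophan, tryptophan-alanine and alanine-valine each made up 4.61% to 5.02%. The highest leucine-alanine value, 13.97%, belonged to KO replicate 2, and 47 of its 63 clonotypes with that pair (74.6%) were near neighbors of a larger clonotype. In that mouse 61.0% of others and 58.3% of all members were, and the shares for valine-leucine and valine-tryptophan were 76.5% and 75.0%, so leucine-alanine was not alone in this.

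**Figure D1:**
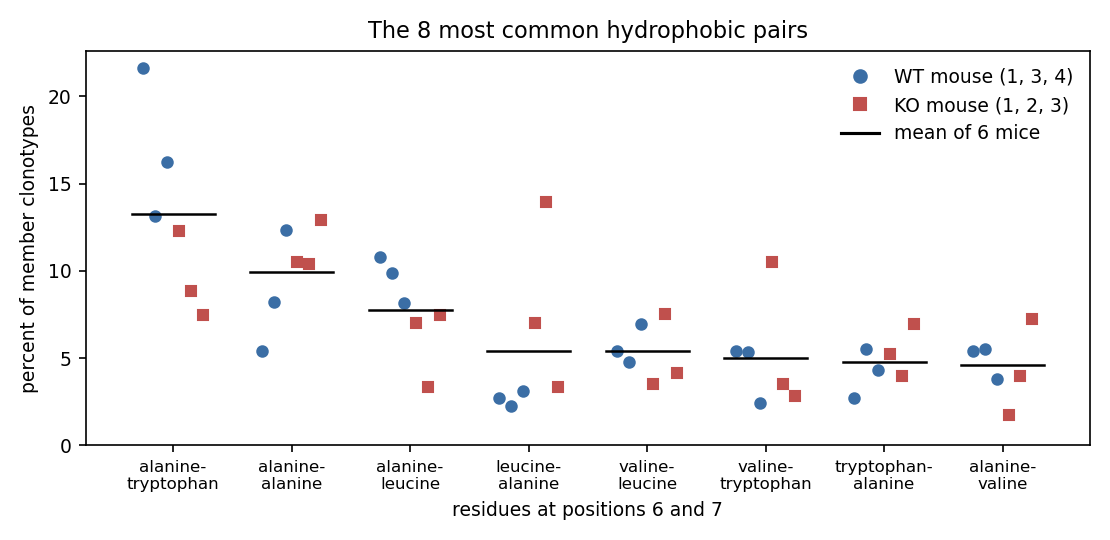
Percent of member clonotypes (y axis) that carried each of the 8 most common residue pairs (x axis), with 1 point per mouse and a line at the mean of 6 mice. Alanine-tryptophan lies between 7.49% and 21.6%, with the KO mice below the WT mice, and leucine-alanine stands high in KO replicate 2 alone, at 13.97%.

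Counted by UMIs, alanine-tryptophan took 33.6 ± 29.0% of the member UMIs of a mouse and alanine-alanine 1.73 ± 1.13%. Single clones set these values. The TRBV5 alanine-tryptophan clone of KO replicate 1 held 54.3% of all member UMIs in that mLN and 79.1% in that spleen. It was 3.498% of all mLN UMIs (Wilson 95% confidence interval 3.27 to 3.74%) and 6.45% of spleen UMIs (6.26 to 6.64%), and ranked 3 in both organs. It also appeared at 13 UMIs in KO replicate 2 spleen and 6 UMIs in KO replicate 3 spleen, at most 0.00834% of a library.

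The other leading members were smaller. The TRBV13-2 alanine-tryptophan clone of KO replicate 1 took 1.75% of mLN (1.59 to 1.93%) and 0.569% of spleen UMIs (0.514 to 0.630%), so it was the larger in mLN, unlike the TRBV5 clone of the same mouse. The alanine-tryptophan clone of WT replicate 1 was larger in spleen, with 0.442% in mLN (0.338 to 0.578%) and 1.27% in spleen (1.08 to 1.49%). The valine-leucine clone of WT replicate 4 took 0.428% and 0.480% of mLN and spleen. In KO replicate 3 mLN the leading members had 7 and 9 UMIs. These intervals cover counting error only.

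Members took a small and even share of clonotypes. By clonotypes, they made up 3.22 ± 0.364% of eligible clonotypes in mLN and 3.19 ± 0.398% in spleen (n = 6 mice each). Single libraries ran from 2.60% (WT replicate 1 mLN) to 3.96% (WT replicate 4 spleen). By UMIs the shares were 3.08 ± 1.85% in mLN and 3.28 ± 2.65% in spleen, with a wider spread. In the same libraries, 59.4% to 66.1% of eligible clonotypes had no hydrophobic residue at positions 6 and 7 and 30.2% to 35.3% had 1 (both without those with a later cysteine). A hydrophobic residue stood at position 6 in 20.8 ± 1.27% and at position 7 in 19.7 ± 0.495% of clonotypes without a later cysteine. Both were hydrophobic in 3.32 ± 0.474%, below the 4.10% that the product of the single shares gives, and below that product in 6 of 6 mice.

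**Figure D2:**
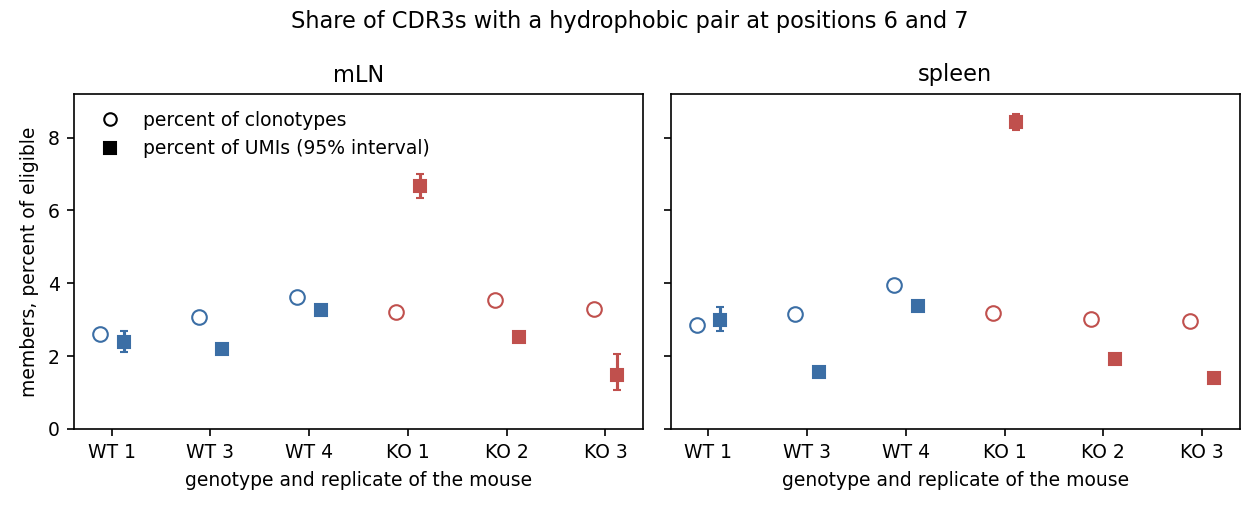
Members as a percent of eligible clonotypes (open circles) and of eligible UMIs (squares, with Wilson 95% intervals) on the y axis for each mouse on the x axis, mLN at left and spleen at right, WT in blue and KO in red. Clonotype shares stay between 2.60% and 3.96%, while the UMI share of KO replicate 1 rises to 6.67% in mLN and 8.44% in spleen.

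To ask whether loss of AMPKα1 changed how much of the repertoire these receptors took, WT and KO mice were compared in each organ. In spleen, members took 3.004%, 1.56% and 3.39% of UMIs in WT replicates 1, 3 and 4, and 8.44%, 1.91% and 1.39% in KO replicates 1, 2 and 3. The groups overlapped, with 1 KO mouse above and 1 below every WT mouse. The difference of 1.26 percentage points (WT 2.65 ± 0.962%, KO 3.91 ± 3.93%) did not exceed the spread among mice (exact permutation test, two-sided, p = 0.9). Without its largest member, the KO replicate 1 spleen share was 1.89%. The same removal gave 1.67%, 1.29% and 2.76% in WT replicates 1, 3 and 4, and 1.08% and 1.12% in KO replicates 2 and 3.

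In mLN, members took 2.38%, 2.18% and 3.26% of UMIs in WT and 6.67%, 2.53% and 1.47% in KO. These groups overlapped as well (difference 0.949, WT 2.61 ± 0.571%, KO 3.56 ± 2.75%, exact permutation p = 0.8), and without its largest member KO replicate 1 had 3.16%. Without theirs, WT replicates 1, 3 and 4 had 1.48%, 1.56% and 2.56%, and KO replicates 2 and 3 had 1.58% and 1.10%. Leaving out KO replicate 1 turned both differences, to −1.001 in spleen and −0.606 in mLN. Without alanine in the hydrophobic set they were −0.265 and −0.318.

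With each clonotype counted once, members made up 2.84%, 3.15% and 3.96% of spleen clonotypes in WT and 3.18%, 3.02% and 2.98% in KO, a difference of −0.260 (p = 0.8 by exact permutation). In mLN they made up 2.60%, 3.07% and 3.61% in WT and 3.21%, 3.53% and 3.31% in KO, a difference of 0.257 (p = 0.5 by exact permutation). The KO values lay inside the range of WT in both organs. With 3 mice against 3 the smallest p this test allows is 0.1. Within the libraries with few and with many unusual J ends, the spleen differences in UMI percent were 5.43 and −0.824 and those in clonotype percent 0.334 and −0.556, of opposite sign, over 1 against 1 and 2 against 2 mice. In mLN the differences were 1.69 and −0.191 for UMIs, and 0.660 and 0.192 for clonotypes. The first of each set WT replicate 1 against KO replicates 1 and 3, the second WT replicates 3 and 4 against KO replicate 2. Library kind went along with library total, which ran from 2488 to 64882 UMIs in one kind and from 68536 to 493287 in the other, and they cannot be told apart.

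Single residue pairs were then compared between genotypes with edgeR's quasi-likelihood test on clonotypes per pair, over all pairs with at least 10 clonotypes in at least 3 libraries. In spleen, 13 of the 64 hydrophobic pairs were abundant enough, and 0 of them passed an adjusted p of 0.05, where the share of all 177 tested pairs that passed was 0% (9 pairs, none of them hydrophobic, had an unadjusted p under 0.05, and DESeq2 also called 0). Their median log2 difference, KO minus WT, was −0.20, against 0.04 over all pairs, and 10 of the 13 were below 0. Alanine-tryptophan had a log2 difference of −0.90 there (edgeR adjusted p = 0.972). In mLN only 2 hydrophobic pairs could be tested and 0 passed, beside 0% of all 81 pairs (11 at an unadjusted p under 0.05, DESeq2 0). Alanine-tryptophan was the only hydrophobic pair with an unadjusted p under 0.05 there, with a log2 difference of −1.09 (edgeR adjusted p = 0.367), and with UMIs in place of clonotypes the value was 1.36. The mLN libraries of KO replicates 1, 2 and 3 held 40, 228 and 8 members, so the KO side rested mainly on replicate 2. Leaving out that mouse, WT replicate 3 or WT replicate 4 left 0 hydrophobic pairs to test in mLN.

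Clone size was examined next. The measure was the mean log2 UMIs per clonotype of members minus that of others of the same CDR3 length in the same library, averaged over both organs of a mouse. It was 0.15 in WT replicate 1, −0.08 in WT replicate 3 and −0.14 in WT replicate 4. In KO replicates 1, 2 and 3 it was −0.24, −0.31 and −0.23. Members thus had a lower mean than others in 5 of 6 mice, and the mean difference of −0.14 ± 0.16 did not exceed the spread between mice (two-sided exact sign-flip test over 64 patterns, p = 0.125). Every KO value lay below every WT value (difference −0.24, exact permutation p = 0.1, the smallest possible with 3 against 3). Within the libraries with few and with many unusual J ends that genotype difference was −0.45 and −0.10. KO replicate 3 entered the first with its mLN and the second with its spleen.

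The clone size difference depended on clonotypes of 1 UMI and on depth. Without clonotypes of 1 UMI it was −0.03 (exact sign-flip p = 0.844), while the genotype difference was −0.39, larger than with all clonotypes, and every KO value was again below every WT value (exact permutation p = 0.1). With values expected at 2488 UMIs in every library it was 0.04 (exact sign-flip p = 0.844), and the genotype difference was then 0.04 as well, with KO replicate 1 the highest of the 6 mice. With near neighbors removed, members minus others was 0.26, −0.20 and −0.16 in WT replicates 1, 3 and 4. In KO replicates 1, 2 and 3 it was then −0.16, −0.59 and −0.36. Removing clonotypes with unusual J ends gave 0.13, −0.10 and −0.19 in WT and −0.24, −0.41 and −0.29 in KO. Compared only with others that had no hydrophobic residue at positions 6 and 7, members differed by −0.18 (exact sign-flip p = 0.09375). Compared with others that had 1, they differed by −0.13 (exact sign-flip p = 0.1875). When the pair was read at positions 5 and 6 the difference was −0.08 (exact sign-flip p = 0.4375), and at positions 7 and 8 it was −0.28 (exact sign-flip p = 0.09375). The last value rested on WT replicate 1, at −1.12, and was −0.11 without that mouse (exact sign-flip p = 0.1875). With the pair at positions 6 and 7 and alanine left out of the hydrophobic set, the difference was −0.17. It was below 0 in 6 of 6 mice (exact sign-flip p = 0.03125, the smallest possible), though only −0.007 in WT replicate 3 and −0.03 in KO replicate 3.

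**Figure D3:**
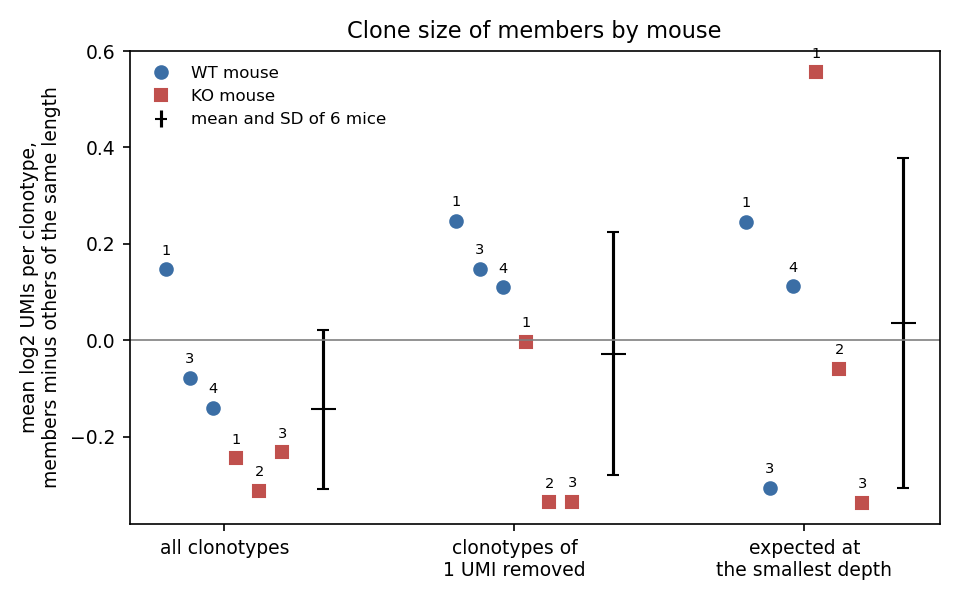
Mean log2 UMIs per clonotype of members minus others of the same length (y axis), with 1 numbered point per mouse, for all clonotypes, without clonotypes of 1 UMI and at the depth of the smallest library (x axis); bars give the mean and SD of 6 mice. With all clonotypes the mean is −0.14 and only WT replicate 1 is above 0, whereas the other settings have means near 0 and points on both sides.

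The share of members was also read within classes of clone size. In the 7 libraries with many unusual J ends, members made up a median of 3.35% of clonotypes of 1 UMI (range 3.05% to 4.20%) and 2.56% of clonotypes of 2 to 9 UMIs (1.97% to 2.86%). The share among clonotypes of 1 UMI was the higher in 7 of 7. Among clonotypes of 10 to 99 UMIs it was 2.64% (2.08% to 3.80%) and among those of 100 UMIs or more 1.81% (1.46% to 3.72%). In the 5 libraries with few unusual J ends the share among clonotypes of 1 UMI was higher than among 2 to 9 UMIs in 3 of 5 (medians 2.90% and 2.83%). There the share among clonotypes of 100 UMIs or more had a median of 6.67%, from 0% to 6.82%, and rested on 8 members in all.

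**Figure D4:**
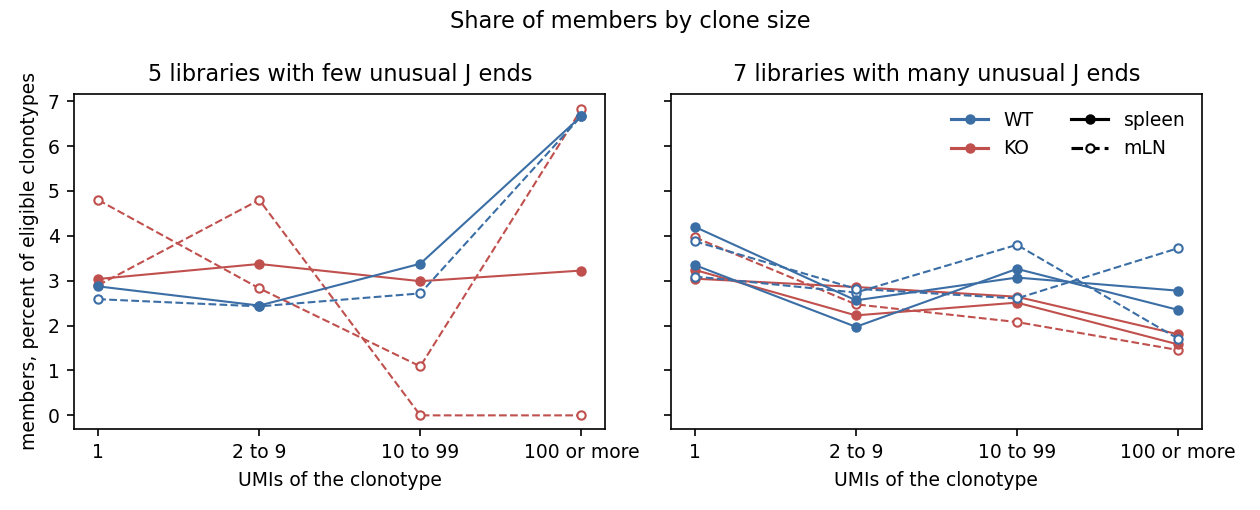
Members as a percent of eligible clonotypes (y axis) by the number of UMIs of the clonotype (x axis), with 1 line per library, in the 5 libraries with few (left) and the 7 with many unusual J ends (right). At right each line falls from 1 UMI to 2 to 9 UMIs, and at left the lines cross and the class of 100 UMIs or more runs from 0% to 6.82%.

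Whether members were as common among the largest clones as among all clonotypes varied with the cut and the library kind. Each library had 2 to 4 members among its 100 most abundant eligible clonotypes. The share there minus the share among all clonotypes was −0.037 ± 0.645 percentage points (above 0 in 3 of 6 mice, exact sign-flip p = 0.875). Over the 300 most abundant clonotypes it was −0.928, below 0 in every mouse (exact sign-flip p = 0.03125), and over the 50 most abundant 0.296 (exact sign-flip p = 0.71875). In KO replicate 3 mLN, which had 242 eligible clonotypes, the 300 most abundant are all of them. Over the 100 most abundant, the difference was 0.592 within the libraries with few unusual J ends and −0.535 within those with many.

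To ask whether members favored one organ, mLN and spleen were compared within mice. The UMI share in mLN minus that in spleen, in percentage points, was −0.622, 0.622 and −0.128 in WT replicates 1, 3 and 4 and −1.77, 0.620 and 0.0850 in KO replicates 1, 2 and 3, above 0 in 3 of 6 mice (mean −0.199 ± 0.903, exact sign-flip p = 0.656). The same difference in clonotype share was −0.244, −0.0788 and −0.350 in WT and 0.0349, 0.512 and 0.331 in KO. Every WT mouse had a higher share in spleen and every KO mouse in mLN, and the mean over all mice was 0.034 ± 0.333 (exact sign-flip p = 0.812). The difference of this organ effect between genotypes, 0.517 percentage points, had an exact permutation p of 0.1, the smallest possible. The split was seen in 3 of 10 other settings and lost in 7. Without clonotypes of 1 UMI the genotype difference turned to −0.143 (exact permutation p = 0.9), with 1 of 3 WT mice below 0 and 1 of 3 KO mice above 0. Without alanine it was −0.301 (exact permutation p = 0.4), and at the depth of the smallest library 0.161 (exact permutation p = 0.9). With the smallest library, KO replicate 3 mLN, left out with its mouse, the mean organ difference was −0.025.

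Clonotype by clonotype, organ preference was taken as the log2 ratio of mLN to spleen percent. A clonotype was used if its percent summed over both organs was at least that of 10 UMIs in the shallower library. It could thus be absent from either organ. Between 8 and 37 members per mouse could be used in 5 mice and 2 in KO replicate 3. Members minus others of the same length was −0.64, 0.09 and −0.20 in WT and −0.37, −0.55 and 0.94 in KO (mean −0.12 ± 0.58, exact sign-flip p = 0.656). Without KO replicate 3, whose value rests on 2 members, the mean was −0.33 (exact sign-flip p = 0.125). Of the members used, 87.5% to 100% per mouse were found in both organs, against 90.1% to 98.9% of others, a length-matched difference of −1.31 ± 6.24 percentage points (exact sign-flip p = 0.625). The 11 exact tests of shares, clone size and organ formed 1 family, with adjusted p-values from 0.688 to 0.900.

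For single residue pairs, mLN against spleen with the mouse as a block, 0 of 14 hydrophobic pairs tested passed, beside 1.55% of all 193 pairs. The 3 pairs that passed, glycine-glutamate, glycine-lysine and histidine-glycine, are not hydrophobic pairs, were named after their values were seen and were lower in mLN (edgeR adjusted p = 0.0108 each). Of 20 pairs with an unadjusted p under 0.05, valine-leucine was the only hydrophobic one (log2 difference 0.51, edgeR adjusted p = 0.409). The hydrophobic pairs had a median log2 difference of −0.09, against −0.04 over all pairs. DESeq2 called 0 pairs.

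Members and others were then compared over 8 sequence features that the rule does not name, though some are tied to it. None of them passed an adjusted p of 0.05 with all clonotypes. The mean CDR3 length of members was 14.2 ± 0.130 residues against 13.9 ± 0.0511, and the value was higher in every one of 6 mice (p = 0.03125 by exact sign-flip, 0.0625 adjusted over 8 features). The share of members was lowest at 13 residues, 1.97 ± 0.920%, and was 4.50 ± 2.38% at 11 residues and 8.02 ± 5.57% at 17. A TRBJ2 segment was used by 77.5 ± 6.35% of members and 65.5 ± 2.07% of others. Matched for length the difference was 10.8 percentage points and above 0 in each mouse (p = 0.03125 by exact sign-flip, 0.0625 adjusted). It ran from 0.924 in KO replicate 3 to 19.9 in WT replicate 1. TRBJ2 use is not independent of the rule. TRBD2, named for most tryptophan codons inside a D match, lies after the TRBJ1 and before the TRBJ2 segments on chromosome 6.

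At the next residue, position 8, 14.2 ± 2.80% of members had a hydrophobic residue against 19.5 ± 3.03% of others (length-matched difference −5.11 percentage points, below 0 in each mouse, p = 0.03125 by exact sign-flip, 0.0625 adjusted). At position 5 the difference was −1.05 (p = 0.406 by exact sign-flip). Members held 1.16 ± 0.141 glycines outside positions 6 and 7, others 0.876 ± 0.0440 (length-matched difference 0.180, above 0 in 5 mice, p = 0.0625 by exact sign-flip, 0.0833 adjusted). Charged residues outside the pair numbered 1.52 ± 0.111 and 1.41 ± 0.0930 (p = 0.09375 by exact sign-flip, 0.107 adjusted). Members had 9.51 ± 0.823 bases between V end and J start, others 9.72 ± 0.644. The length-matched difference was −0.775, above 0 in 1 mouse (p = 0.0625 by exact sign-flip, 0.0833 adjusted). With clonotypes of 1 UMI removed, 7 of 8 features passed an adjusted p of 0.05 (exact sign-flip adjusted p = 0.0357 each, from the smallest possible p of 0.03125). The exception was the hydrophobic residue at position 5.

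The bases of codons 6 and 7 came from different places in the 2 classes. In members 30.8 ± 5.53% of these bases lay in the D match and 47.2 ± 4.73% in no segment. Bases in no segment include those added at the junctions and any D remnant too short to be matched, which were not separated. In others 52.2 ± 3.44% lay in the D match and 29.0 ± 4.51% in no segment. The ranges over mice did not overlap for either, with 24.5% to 37.4% in D for members and 48.8% to 56.4% for others. Germline D segments are rich in glycine codons, which the rule bars at both positions, so these shares are not independent of it. The same holds for the share, given below, with both codons outside the V and J matches. V and J matches covered 7.41% and 14.6% of the bases in members and 5.56% and 13.2% in others. Both codons lay outside the V and J matches in 34.97 ± 11.04% of members and 53.5 ± 3.49% of others, and the share was lower in each mouse (length-matched difference −20.7, p = 0.03125 by exact sign-flip, 0.0625 adjusted). A match need not be germline: the authors' J match reached back over the V match in 2.71 ± 2.74% of members, with the leucine-alanine clone of KO replicate 2 among them, and in 1.19 ± 0.162% of others. Without those clonotypes the D match held 31.6 ± 5.28% of the bases in members and 52.9 ± 3.48% in others.

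V and J segments were compared between members and others with edgeR's quasi-likelihood test on clonotypes per segment, with the mouse as a block. Of 23 V segments, 2 passed an adjusted p of 0.05 (8.70% of those tested), 1 higher and 1 lower in members, and of 12 J segments 1 passed (8.33%), lower in members. TRBV13-2 (GRCm38 chromosome 6, 41121396 to 41121832, plus strand, a V gene) made up 27.0%, 18.4% and 20.5% of members in WT replicates 1, 3 and 4 and 21.1%, 37.5% and 14.2% in KO replicates 1, 2 and 3. Among others it made up 11.5 ± 1.03%. It was higher in members in 6 of 6 mice (mean 23.1 ± 8.18%, log2 difference 0.94, edgeR adjusted p = 0.0231).

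TRBV2 (chromosome 6, 41047340 to 41047995, plus strand, a V gene) made up 2.24 ± 2.30% of members and 5.51 ± 1.30% of others, lower in 6 of 6 mice (log2 difference −0.91, edgeR adjusted p = 0.0293). TRBJ1-1 (chromosome 6, 41533864 to 41533911, plus strand, a J gene) made up 4.77 ± 3.52% of members and 11.8 ± 1.94% of others, also lower in 6 of 6 mice (log2 difference −1.24, edgeR adjusted p = 0.00154). With near neighbors removed all 3 still passed (edgeR adjusted p from 6.4e-05 to 0.00982), and TRBV13-1 passed as well. Leaving out WT replicate 1, WT replicate 3, WT replicate 4 or KO replicate 1 ended both V calls, with adjusted p from 0.0659 to 0.104, and leaving out WT replicate 4 ended that of TRBJ1-1 (edgeR adjusted p = 0.0737). Counted by UMIs, TRBV13-2 did not pass (edgeR adjusted p = 0.126), and without clonotypes of 1 UMI neither TRBV2 (edgeR adjusted p = 0.184) nor TRBJ1-1 (edgeR adjusted p = 0.266) did.

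**Figure D5:**
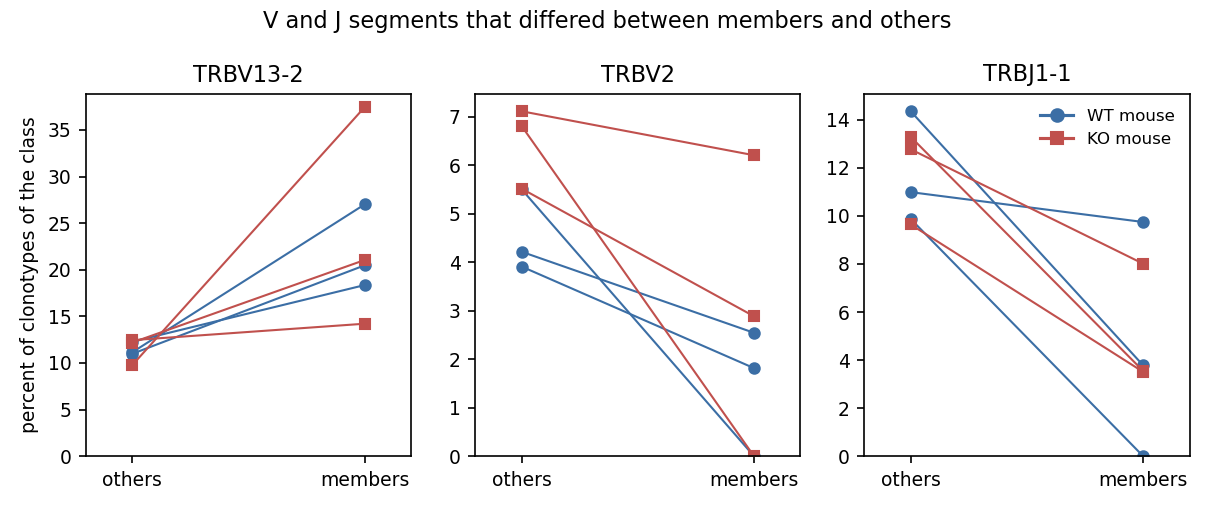
Percent of clonotypes (y axis) that used TRBV13-2, TRBV2 and TRBJ1-1 among others and members (x axis), with 1 line per mouse, WT in blue and KO in red. All 6 lines rise for TRBV13-2, from a mean of 11.5% to 23.1%, and all 6 fall for TRBV2 and TRBJ1-1.

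The V test is not free of the rule, because some V segments reach into codon 6. Nor is the J test, given the place of TRBD2 after the TRBJ1 segments. Germline ends of V segments are shown from the first CDR3 codon, with the bases of codon 6 in capitals.
TRBV13-2: tgtgccagcggtgatG
TRBV2: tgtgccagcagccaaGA
TRBV5: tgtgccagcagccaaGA
The first base of alanine and valine codons is G, which TRBV13-2 ends with. TRBV13-1, TRBV13-3 and TRBV19 end with G as well. TRBV13-1 was higher in members in 5 of 6 mice (11.9 ± 6.22% against 6.45 ± 1.38%). TRBV13-3 was lower in members in 4 of 6 mice (4.71 ± 2.19% against 6.49 ± 0.761%, log2 difference −0.32, edgeR adjusted p = 0.355), and so was TRBV19 (4.92 ± 2.40% against 6.48 ± 1.25%, log2 difference −0.40, edgeR adjusted p = 0.262). In codon 6, TRBV3 holds GCC, an alanine codon, and TRBV15 holds GC. TRBV3 was higher in members in 4 of 6 mice (10.8 ± 5.63% against 8.39 ± 1.93%) and TRBV15 lower in 5 (1.71 ± 1.01% against 3.38 ± 0.640%). GA begins the codons of aspartate and glutamate, neither of them hydrophobic. TRBV5 has the same end as TRBV2, and did not pass (log2 difference −0.17, edgeR adjusted p = 0.615). TRBV1 and TRBV16 end with GA as well and were lower in members in 5 of 6 mice each. TRBV17 and TRBV4, with that end too, were lower in 3 and 2. Alanine stood at position 6 in 56.2 ± 19.0% of TRBV13-2 members and 38.7 ± 5.47% of members with other V segments. Among others the shares were 16.9 ± 3.96% with TRBV13-2 and 5.39 ± 1.05% without. With alanine left out of the hydrophobic set, the log2 difference of TRBV13-2 was 0.27 (edgeR adjusted p = 0.599), while those of TRBV2 and TRBJ1-1 were −1.47 (edgeR adjusted p = 0.0175) and −2.10 (edgeR adjusted p = 5.36e-06).

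Few members were found in more than 1 mouse. Of 2920 members, 37 (1.27%) occurred in at least 2 mice, as did 1219 of 81089 others (1.503%). Members reached at most 3 mice (6 members), and others 5. When occurrences at least 100 times less frequent than in another mouse were removed, 24 members (0.822%) and 617 others (0.761%) were left. Of the 6 members found in 3 mice, the most abundant were the TRBV5 and TRBV13-2 alanine-tryptophan clones of KO replicate 1, which had at most 13 UMIs in any library of another mouse.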

How the data were processed

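TCR beta libraries of 12 samples were analyzed. According to their methods, the authors made cDNA with 5′ RACE and UMIs, sequenced it on a MiSeq, used MIGEC to collapse UMIs and MiXCR, at default settings, to assemble clonotypes. Versions, the segment reference and a genome build are not given in the sources used here. Counts were deposited as whole numbers for each clonotype and taken as UMIs, and the deposited clone fraction is that count over the library total, used only as a check. V, D and J are the first hits in the tables, and calls between segments with like ends, such as TRBV12-1 and TRBV12-2 or TRBV13-1 and TRBV13-3, are uncertain. The authors downsampled for their own analysis, and the tables are not downsampled. UMI errors left by collapsing cannot be redone here.

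Rows with the same CDR3 nucleotides were summed. Members and lists were chosen with earlier results of these data known. Genotypes were compared over mice with exact permutation tests and organs with exact sign-flip tests, all two-sided, with Benjamini-Hochberg adjustment. Separate recipients are the replicates, and both organs of a mouse are paired because they come from 1 animal. Pairs and segments were tested with edgeR 4.0.16 on clonotype counts with column totals as library sizes. The pair fits for spleen genotypes and for organs and the V segment fit were run on simulated counts, with outcomes not given here. The mLN genotype and J segment fits were not. Named were the 8 most common pairs, segments past an adjusted p of 0.05, the 2 most abundant members per mouse and members found in the most mice. Segment positions are from GENCODE vM21 (GRCm38). Shares have Wilson 95% intervals, and a floor of 3 counts per eligible UMI total ran from 0.000652% to 0.126%. Alternatives were other clonotype definitions, sets, depths and filters, TMM, DESeq2, and leaving out mice. Removal of 1-base and 5-base neighbors (at least 20 times fewer UMIs), others split by their hydrophobic residues, the split by library kind, the alternatives for sequence features, the organ difference by genotype in other settings, the shifted pair without each mouse and the segment tests without alanine were chosen after seeing the data.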

Additional observations from a re-analysis of the deposited data

Results flagged for a closer look

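The share of UMIs held by members stood apart in KO replicate 1, at 6.67% in mLN and 8.44% in spleen. Its gap to the next mouse was 0.657 and 0.717 of the range of 6 mice, over the limit of 0.625 for 6 values (Dixon). The TRBV5 alanine-tryptophan clone held 54.3% and 79.1% of these UMIs, and without it the shares were 3.16% and 1.89%. By clonotypes, WT replicate 4 stood apart in spleen, at 3.96%, with a gap of 0.701 of the range. Of 18 sets of 6 values examined, these 3 passed the limit, and chance alone passes about 1 set in 20.

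The organ difference in member clonotypes, mLN minus spleen, was below 0 in every WT mouse and above 0 in every KO mouse. The KO minus WT difference of 0.517 percentage points had an exact permutation p of 0.1, the smallest that 3 mice against 3 allow. This split was lost in 7 of 10 other settings. The difference turned to −0.143 without clonotypes of 1 UMI and to −0.301 without alanine. No explanation was tested for any of these values.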

How the results depend on the processing

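The 11 results on shares, clone size and organ had 206 values under the alternatives, of which 174 kept their direction and 2 had an exact p under 0.05. Removing clonotypes of 1 UMI turned the top 100 difference to 0.446 and the KO minus WT clonotype differences to 0.0497 (spleen) and −0.0930 (mLN), left 7 of 8 features past an adjusted p of 0.05, and gave 4 V calls without TRBV2, 0 J and 0 organ pair calls. Clonotypes defined by amino acids gave 0.0123 for the top 100 and −0.0974 for the organ clonotype difference. Without alanine, clone size was −0.17 (exact sign-flip p = 0.03125), the KO minus WT UMI differences −0.265 (spleen) and −0.318 (mLN), the clonotype differences 0.0814 and −0.220, the organ differences 0.102 (UMIs), −0.0465 (clonotypes) and 1.49 (found in both), with 1 V and 4 J calls. Removing unusual J ends gave −0.0660 for the organ clonotype difference and 0.0440 for position 5, one length distribution gave −0.00543 for the former, and 5-base neighbors removed gave 0.127 for the latter. At the smallest depth the mLN clonotype difference was −0.284, clone size 0.0354 and its genotype difference 0.0359, and a ratio of mean sizes gave 0.180 for the last. The top 50 gave 0.296, the top 300 gave −0.928 (exact sign-flip p = 0.03125), and libraries with few unusual J ends 0.592. A minimum of 30 UMIs gave 0.866 for found in both organs, and leaving out the KO replicate 3 mLN library −0.0253 for the organ clonotype difference. UMIs in place of clonotypes gave 1 pair call in spleen, 1 in mLN, 0 between organs, 8 V calls, all lower in members and without TRBV13-2, and 2 J calls, 1.36 for alanine-tryptophan in mLN and −0.10 for valine-leucine between organs. DESeq2 gave 0 organ pair and 3 J calls. TRBV2 was lost under TMM too (edgeR adjusted p = 0.130). The top 100 difference at the smallest depth was not run. The causes were not tested.

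Leaving out 1 mouse gave −0.201 to −0.109 for clone size, −0.298 to −0.154 for its genotype difference, −0.206 to 0.177 for the top 100, −1.001 to 2.52 (spleen) and −0.606 to 1.99 (mLN) for the UMI differences, and −0.496 to 0.0620 and 0.0111 to 0.516 for the clonotype differences. Between organs the ranges were −0.363 to 0.115 (UMIs), −0.0616 to 0.111 (clonotypes), −0.33 to −0.02 (preference) and −3.24 to 0.217 (found in both). Calls ranged from 0 to 5 (V), 0 to 2 (J), 0 to 1 (mLN pairs), 0 to 0 (spleen pairs) and 0 to 4 (organ pairs), and 0 of 8 features passed in each, which was fixed because 5 mice allow no exact sign-flip p under 0.0625.

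WT and KO mice with the same number shared only that number (correlation of deviations 0.108 on average, from −0.0918 to 0.265). With the replicate block over these numbers the differences were 2.63 and 1.79 (UMIs, spleen and mLN), 0.0815 and 0.426 (clonotypes) and −0.27 (clone size), with 0 pair calls. Without the mouse block, organ pairs had 0 calls, V segments 3 and J segments 1. With 3 mice against 3, no exact genotype test could pass 0.05, and in KO replicate 3 mLN 8 members limit every organ value of that mouse.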
